A study of Mus musculus with 12 samples.

Results

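Epithelial genes that move chloride and bicarbonate across the duct were followed through the count table of the rDKK3 experiment. They are 10 of the 57186 named genes in the table: Slc26a9, Slc26a6 and Slc26a3, Cftr and Ano1, Clca3a2, Slc4a4, Slc4a2 and Slc12a2, and Car2. Members were chosen by name, with earlier results of these same counts by line and treatment known, so their treatment and line values are given as a description and support nothing by themselves. RNA was measured in 12 libraries from 3 tumor cell lines, named DDKC_9750, DDKC_9790 and DDKC_9804, with 2 libraries for each line untreated and 2 for each line given rDKK3, the recombinant soluble form of DKK3. All groups, the untreated ones included, lack Dkk3: the DDKC lines came from pancreatic tumors of mice with a homozygous, ubiquitous Dkk3 knockout and Cre under the control of Ptf1a, which is active in the pancreatic epithelium, and were grown in DMEM with serum. The comparison asks what soluble DKK3 from outside does to tumor cells that make none. The labels do not say whether each line came from a mouse of its own, no line with intact Dkk3 was in the table, and neither the age of the mice nor the rDKK3 dose for these RNA samples is stated in the sources used here.

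Pancreatic duct cells secrete a bicarbonate-rich fluid. Transporters on the basolateral side load the cell with chloride and bicarbonate, carbonic anhydrase makes bicarbonate from carbon dioxide, and apical channels and chloride-bicarbonate exchangers of the SLC26 family release both ions into the lumen. Cftr, opened by cyclic AMP, is the best known of these channels, and Ano1 is a chloride channel opened by calcium.

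Total counts ran from 7520741 to 24541083 in the 6 untreated libraries and from 3822987 to 11567095 in the 6 treated ones, so treated libraries were shallower, and 3 counts, taken as the floor, were worth 0.127 to 0.755 CPM (counts scaled to a common library size). Dkk3 itself was at 0 counts in 11 libraries and at 1 count in a treated library of line DDKC_9750. Nothing in the labels tells if the repeat libraries came from cultures of their own. After removal of a gene-wise shift between the 2 series of library numbers, such pairs differed by less than sampling noise (deviance of 0.764 per degree of freedom, against 6.39 with the shift left in), so their counts were summed and counted as 1 sample, which left n = 3 lines per condition. Of the 12 duct markers all had counts, led by Spp1, Krt18 and Krt8, although Epcam averaged only 1.19 CPM. Their summed level ran from 13060 to 37360 CPM in the untreated lines and from 10830 to 21270 CPM in the treated ones, and it was lower with rDKK3 in each line. Spp1 was on average the most abundant gene in that sum. Of the 12 markers 5 were lower in all 3 lines, against 18.2% of all genes tested. Another 3 (Sox9, Onecut1 and Muc1) were higher in all 3, against 14.2%. Onecut1 had 1.85 CPM in treated line DDKC_9750, 0.997 CPM in that line untreated and at most 0.246 CPM in the other lines. It could not have passed the filter on low counts without its treated libraries, so nothing is read from its direction. DESeq2 on the sums called 1 of the 12, Krt19, named after its value was seen (log2 fold change -0.53, adjusted p = 0.00606), against 0.626% of all genes. The part of the duct markers in the results below was not tested. Acinar, endocrine and leukocyte markers summed to at most 12.3, 0.086 and 46.1 CPM in any line and condition, with Ptf1a, Amy2a5, Cpa1, Ins1, Chga, Adgre1, Cd3e and Lyz2 at 0 counts. The leukocyte sum, of which Cd68 was one of the 2 genes tested, was higher with rDKK3 in each line (9.54 and 10.5, 29.2 and 46.1, and 10.4 and 17.0 CPM in lines DDKC_9750, DDKC_9790 and DDKC_9804). Mesenchymal markers, led by Vim, had a lower sum with rDKK3 in each line (2826 and 1925, 4966 and 3618, and 3648 and 3109 CPM). The median log2 fold change of the 9 mesenchymal markers tested was 0.14. At an unadjusted p under 0.05 in the edgeR quasi-likelihood fit, 2 of them (Zeb2 and Pdpn) were higher and 1 (Vim) was lower. Of all genes tested, 8.53% passed that threshold in either direction. Pdpn had 4.27 CPM in treated line DDKC_9750, 0.266 CPM in that line untreated and at most 0.0541 CPM in the other lines. It passed the filter on low counts through that treated sum alone, so nothing is read from its value over the lines. Endothelial markers summed to at most 17.4 CPM. The part of these markers in the results was not tested either. In bulk RNA, fewer cells that express a gene and less RNA per cell cannot be told apart.

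The members covered a wide range of levels. Per kilobase of exon, untreated Ano1 averaged 160 ± 63.7 CPM per kb (SD, n = 3 lines) and Slc12a2 87.8 ± 36.6, followed by Slc4a2 at 25.7 ± 13.8, Car2 at 21.3 ± 25.0 and Slc4a4 at 13.3 ± 10.5 CPM per kb. Slc26a9 averaged 3.71 ± 4.34, Slc26a6 0.590 ± 0.324, Cftr 0.134 ± 0.157 and Clca3a2 0.0287 ± 0.0252 CPM per kb, and Slc26a3 was not detected. Ano1, the calcium-activated channel, therefore stood far above Cftr, the cyclic AMP-activated one, in each of the 3 lines. Of the neighbours in this order, only Slc12a2 and Slc4a2 had line values that did not overlap: the lowest Slc12a2 value was 45.6 and the highest Slc4a2 value 37.6 CPM per kb. The ranges of all other neighbours overlapped or touched at 0, and Car2 was above Slc4a4 in only 1 of 3 untreated lines. With rDKK3 the order was the same except that Slc26a6, at 0.814 ± 0.436, and Slc26a9, at 0.811 ± 0.959 CPM per kb, changed places.

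**Figure D1:**
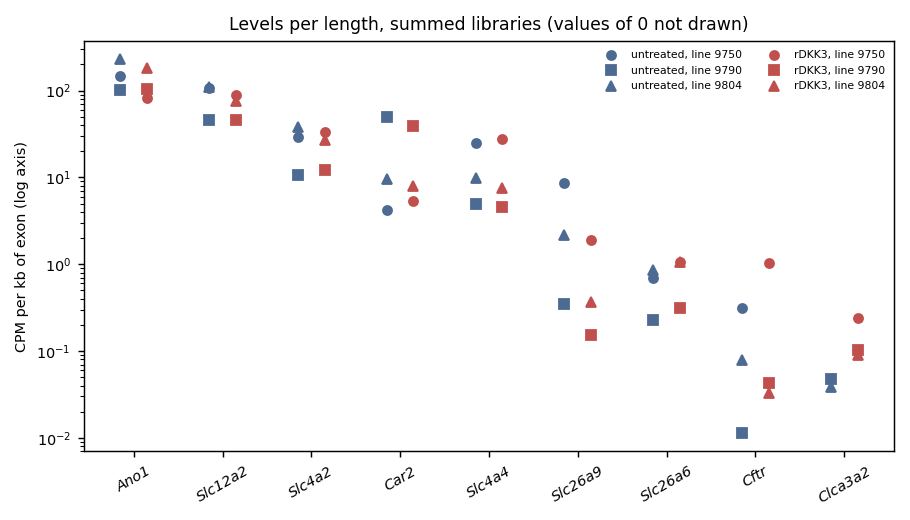
Level of each detected gene per kilobase of exon (CPM per kb, log axis) in the summed libraries of each line, untreated in blue and rDKK3 in red, with 1 symbol per line. Ano1 and Slc12a2 lead in most lines, while Cftr lies below 0.4 CPM per kb in each untreated line; values of 0 are not drawn.

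Of the 10 genes, 8 passed the filter on low counts and entered the fits over 15165 genes; Slc26a3 and Clca3a2 did not. Treatment was tested by edgeR's quasi-likelihood test on the 6 sums with cell line as a block and Benjamini-Hochberg adjustment. At an adjusted p under 0.05 it called 0 of the 8, against 0.00659% of all genes tested, a single gene, Lcn2. At an unadjusted p under 0.05 it passed 1 of the 8, Slc26a9, against 8.53% of all genes, and DESeq2 on the same sums also called Slc26a9 alone, against 0.626%. A fit that took the 12 libraries as separate samples called 3 of the 8 lower (Slc26a9, Ano1 and Slc12a2), against 10.1% of all genes, and 0 higher, against 7.95%. In that fit repeat libraries count as replicates, and its p-values measure only the spread between these libraries. Without any test, 1 of the 8, Slc26a9, was lower in all 3 lines, as were 18.2% of all genes, and 1, Slc26a6, was higher in all 3, as were 14.2%. Nothing is read from these counts, since the members were chosen with these values known. The median log2 fold change of the 8 was -0.11, against -0.0054 over all genes tested.

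**Figure D2:**
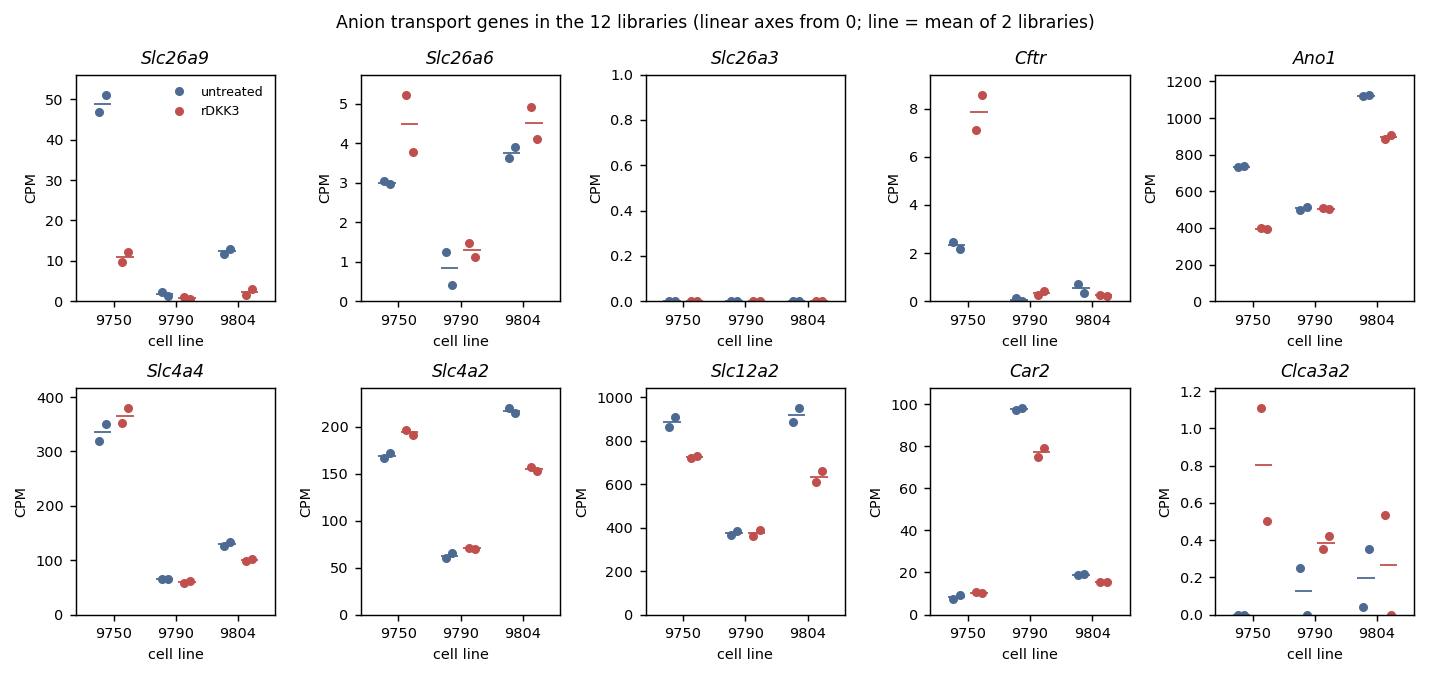
Level of each of the 10 genes (CPM, linear axis from 0, scaled to each gene) in the 12 libraries, by cell line; points are libraries, short lines their mean, blue untreated and red rDKK3. Slc26a9 is lower with rDKK3 in each line, Cftr is higher in line DDKC_9750, and Slc26a3 is at 0 throughout.

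Slc26a9 (ENSMUSG00000042268.11; GRCm39 chromosome 1, 131671760 to 131699242, plus strand) encodes an apical chloride transporter with channel activity that works beside Cftr in several epithelia. It measured 51.0 and 46.8 CPM in the untreated libraries of line DDKC_9750 and 12.1 and 9.81 CPM in its rDKK3 libraries. Line DDKC_9804 had 12.9 and 11.7 CPM untreated and 3.02 and 1.46 CPM with rDKK3. In line DDKC_9790, where it was scarce, the values were 1.38 and 2.19 CPM untreated and 0.560 and 1.05 CPM with rDKK3. Each treated library was below both untreated libraries of its own line, but the groups as a whole overlapped, because untreated line DDKC_9790 lay below treated line DDKC_9750. In the sums, Slc26a9 was 4.50-fold lower in line DDKC_9750 (1446 and 110 counts), 2.24-fold lower in line DDKC_9790 (45 and 16 counts) and 5.89-fold lower in line DDKC_9804 (424 and 25 counts). The exact 95% intervals of the treated-to-untreated ratio, which cover counting error only, were 0.181 to 0.270, 0.236 to 0.806 and 0.109 to 0.254. Over the 3 lines the mean was 20.7 ± 24.2 CPM untreated and 4.53 ± 5.36 CPM with rDKK3 (SD, n = 3). The edgeR quasi-likelihood fit gave a log2 fold change of -2.05 (SE 0.29, adjusted p = 0.578). By p-value it ranked 13 of the 15165 genes. DESeq2 gave -2.02 with an adjusted p of 9.33e-05 and the edgeR fit over 12 libraries -2.11 with an adjusted p of 0.000211, so the size of the change barely moved between the tools while the call did. Over 13 alternative fits the log2 fold change lay between -2.34 and -1.82, and 4 of them called it, with adjusted p from 9.33e-05 to 1.

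Slc26a9 also differed between lines: untreated line DDKC_9750 was 24.8-fold above untreated line DDKC_9790 (line effect by the edgeR quasi-likelihood fit, adjusted p = 0.00522). Its log2 CPM spanned 5.65 over the 6 sums, the widest range of the 8. Of 10991 protein-coding genes compared over the same 6 sums, those whose log2 CPM followed it most closely were Mtrf1, Snrpd3 and Zfp748 (Pearson's r of 0.989 each) and Hikeshi and Tefm (0.986 each). These correlations describe 6 points from 3 lines and carry no test. The followers moved far less: Mtrf1 went from 7.71 to 6.31 CPM in line DDKC_9750, from 5.29 to 5.14 in line DDKC_9790 and from 6.65 to 5.34 in line DDKC_9804.

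Slc26a6 (ENSMUSG00000023259.18; chromosome 9, 108730482 to 108742117), the main apical chloride-bicarbonate exchanger of the pancreatic duct, differed in the other direction and by little. Its sums went from 2.99 to 4.66 CPM in line DDKC_9750, from 0.989 to 1.35 CPM in line DDKC_9790 and from 3.71 to 4.60 CPM in line DDKC_9804, with 23 to 130 counts behind each value. The interval of the treated-to-untreated ratio excluded 1 in line DDKC_9750 alone (1.07 to 2.24), and the log2 fold change of 0.47 (SE 0.25) had an adjusted p of 0.641 in the edgeR quasi-likelihood fit. In line DDKC_9790 1 treated library, at 1.12 CPM, was below an untreated one, at 1.25 CPM. Slc26a3 (ENSMUSG00000001225.13), the exchanger best known from the colon, had 0 counts in all 12 libraries, which allows up to 0.0856 CPM in the deepest sum and 0.291 CPM in the shallowest.

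Cftr (ENSMUSG00000041301.16, chromosome 6, 18170686 to 18322767, plus strand) was near the floor in line DDKC_9790 and in the treated sum of line DDKC_9804. The untreated sum of line DDKC_9804 had 0.599 CPM against a floor of 0.0856 CPM, and Cftr was clearly counted in line DDKC_9750. Line DDKC_9750 had 2.19 and 2.44 CPM untreated and 8.56 and 7.12 CPM with rDKK3, so that both treated libraries were above both untreated ones. The sums of 70 and 79 counts, at very different depth, gave a ratio of 3.30 (exact 95% interval 2.36 to 4.61, counting error only). The other 2 lines held 2 and 6 counts (line DDKC_9790, interval of the ratio 0.675 to 38.2) and 21 and 3 counts (line DDKC_9804, ratio 0.411, interval 0.0786 to 1.38). No difference was detectable in these 2 lines at this depth. Across lines, the edgeR quasi-likelihood log2 fold change of Cftr was 0.93 (SE 0.69, adjusted p = 0.714), and without line DDKC_9750 it was 0.0070. In line DDKC_9750 Slc26a9 and Cftr thus differed in opposite directions: the sums were 48.1 and 10.7 CPM for Slc26a9 and 2.33 and 7.67 CPM for Cftr.

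Ano1 (ENSMUSG00000031075.20; chromosome 7, 144142286 to 144305711, minus strand), also known as TMEM16A, was the most abundant member per length. Line DDKC_9750 had 735.5 and 730.8 CPM untreated against 392 and 401.5 CPM with rDKK3, and line DDKC_9804 had 1125 and 1120 against 908 and 887 CPM. Line DDKC_9790 showed no such difference: 517 and 497 CPM untreated, 502 and 509.6 CPM with rDKK3. The treated-to-untreated ratios of the sums were 0.547, 0.798 and 1.01, with intervals of 0.529 to 0.565, 0.782 to 0.816 and 0.984 to 1.04. The repeat libraries of a line lay closer to each other than to the libraries of the other condition in lines DDKC_9750 and DDKC_9804, yet the lines did not move alike. The edgeR quasi-likelihood log2 fold change was -0.39 (SE 0.20, adjusted p = 0.627), and -0.40 with an adjusted p of 0.0370 when the 12 libraries were taken as separate samples. Its values over 13 alternatives ran from -0.59 to -0.15.

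The bases before the start sites of Slc26a9, Ano1 and Cftr are shown because these apical genes had the largest log2 fold changes in a single line among the 8 genes tested. They are the 250 bases upstream of each start in RefSeq (GRCm38.p6, another build than the gene positions above), written 5′ to 3′ on the strand of the gene. Capitals mark a match on either strand to GGG, any 5 bases and CC, the letters used here for NF-kB.
Slc26a9, chr1:131743772-131744021, plus strand: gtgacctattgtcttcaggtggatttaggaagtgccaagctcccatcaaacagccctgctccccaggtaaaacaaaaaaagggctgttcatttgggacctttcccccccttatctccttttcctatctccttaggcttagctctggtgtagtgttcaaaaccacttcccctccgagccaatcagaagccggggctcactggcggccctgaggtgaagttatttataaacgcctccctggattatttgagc
Ano1, chr7:144738574-144738823, minus strand: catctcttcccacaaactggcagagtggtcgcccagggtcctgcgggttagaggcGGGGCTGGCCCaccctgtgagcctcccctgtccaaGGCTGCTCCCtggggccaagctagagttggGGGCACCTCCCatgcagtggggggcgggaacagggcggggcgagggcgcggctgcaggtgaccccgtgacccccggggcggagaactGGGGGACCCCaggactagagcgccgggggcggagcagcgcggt
Cftr, chr6:18170437-18170686, plus strand: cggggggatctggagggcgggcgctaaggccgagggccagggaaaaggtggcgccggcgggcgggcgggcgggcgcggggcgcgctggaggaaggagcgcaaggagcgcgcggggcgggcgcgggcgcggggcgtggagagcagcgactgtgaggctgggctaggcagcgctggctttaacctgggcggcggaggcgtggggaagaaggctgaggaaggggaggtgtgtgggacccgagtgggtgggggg
The letters of 4 motifs were searched on both strands. The NF-kB letters were in 45.8% of the 32851 RefSeq windows of this length, TTCNNNGAA (STAT) in 7.02%, TGANTCA (AP-1) in 6.75% and TGACGTCA (cyclic AMP response element) in 1.55%. Ano1 held only NF-kB letters, some of them overlapping, and the windows of Slc26a9 and Cftr held none of the 4. G and C made up 72.0% of the Ano1 window and 76.4% of the Cftr window. Windows were found for 8 of the 10 genes. A match of such short letters is a description and no evidence of binding.

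Clca3a2 (ENSMUSG00000028262.14; chromosome 3, 144502320 to 144525255), of the calcium-activated chloride channel regulator family, was close to the floor. Untreated and treated sums held 0 and 9 counts in line DDKC_9750, 4 and 7 in line DDKC_9790 and 5 and 4 in line DDKC_9804. Against a floor of 3 counts per sum, it was at least 8.76-fold higher with rDKK3 in line DDKC_9750 if the 9 counts are taken as exact. The exact 95% interval of the ratio of 9 to 0 counts, which does not use the floor, began at 5.77. The intervals of the other lines (0.560 to 10.3 and 0.457 to 10.7) included 1. Clca genes lie in a family of similar copies, so reads could be split between them.

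Slc12a2 (ENSMUSG00000024597.12), which encodes the sodium-potassium-chloride cotransporter NKCC1 and loads the cell with chloride, was the second most abundant member. It measured 911 and 865 CPM untreated and 729.8 and 722 CPM with rDKK3 in line DDKC_9750, and 949 and 887 against 661 and 609.7 CPM in line DDKC_9804. In line DDKC_9790 it measured 386 and 366 CPM untreated and 387 and 363 CPM with rDKK3. As with Ano1, lines DDKC_9750 and DDKC_9804 had lower values with rDKK3 and line DDKC_9790 did not, with ratios of 0.827, 0.694 and 1.01 (sums of 372 and 374 CPM in line DDKC_9790). The log2 fold change was -0.26 (SE 0.15, adjusted p = 0.647, edgeR quasi-likelihood) and, over 12 libraries, -0.28 with an adjusted p of 0.0372. Without line DDKC_9804 it was -0.13, and without line DDKC_9790 -0.39.

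The SLC4 members had treatment differences of both signs. Slc4a4 (ENSMUSG00000060961.17; chromosome 5, 89034345 to 89387512), the sodium-bicarbonate cotransporter NBCe1 that brings bicarbonate into the cell, went from 329 to 362 CPM in line DDKC_9750, from 64.8 to 59.4 CPM in line DDKC_9790 and from 128 to 99.5 CPM in line DDKC_9804, with an edgeR quasi-likelihood log2 fold change of -0.12 (SE 0.14, adjusted p = 0.819). Slc4a2 (ENSMUSG00000028962.15; chromosome 5, 24628835 to 24645948), the anion exchanger AE2 that takes up chloride for bicarbonate, went from 168 to 195 CPM, from 61.5 to 70.9 CPM and from 218 to 156 CPM in the same order, with a log2 fold change of -0.02 (SE 0.18, adjusted p = 0.978). In GENCODE M39 it shares same-strand exon sequence with another gene model, so its counts may not be its own in full. Line DDKC_9804 had lower values of Slc12a2, Slc4a4 and Slc4a2 alike, with treated-to-untreated ratios of 0.694, 0.776 and 0.716, all with intervals below 1.

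Car2 (ENSMUSG00000027562.13; chromosome 3, 14951333 to 14965830), the cytosolic carbonic anhydrase of duct cells, had a line pattern unlike the transporters. It measured 98.0 and 97.3 CPM in the untreated libraries of line DDKC_9790, 19.1 and 18.6 CPM in line DDKC_9804 and 9.36 and 7.59 CPM in line DDKC_9750. With rDKK3 the libraries of line DDKC_9790 had 79.4 and 74.9 CPM, those of line DDKC_9804 15.3 and 15.4 CPM and those of line DDKC_9750 10.3 and 10.6 CPM. The log2 fold change was -0.11 (SE 0.18, adjusted p = 0.865, edgeR quasi-likelihood), whereas untreated line DDKC_9790 was 11.9-fold above line DDKC_9750.

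**Figure D3:**
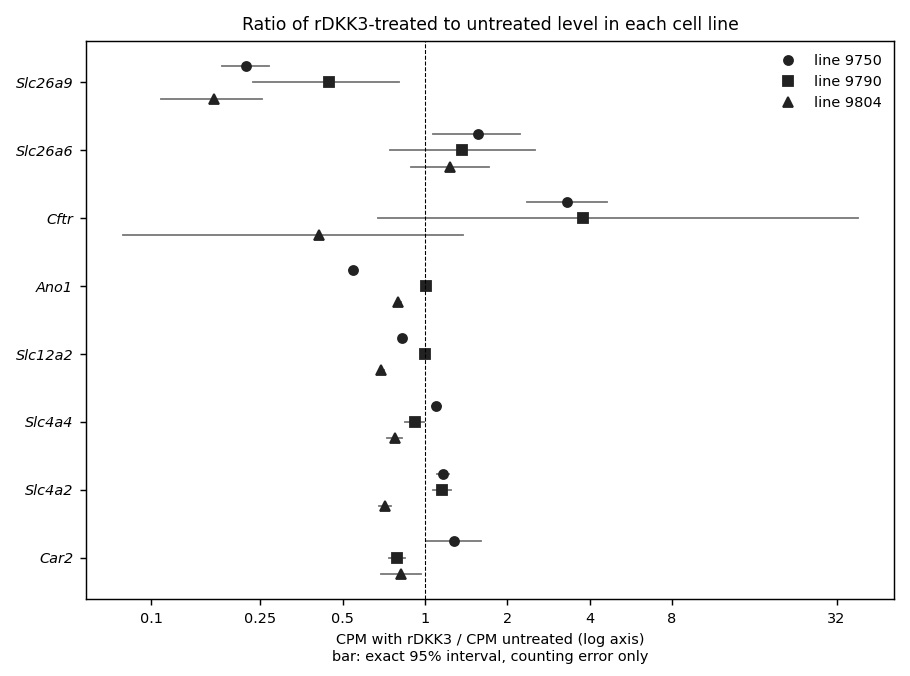
Ratio of the CPM with rDKK3 to the untreated CPM (log axis) for the 8 genes tested, with 1 symbol per cell line and exact 95% intervals that cover counting error only. Slc26a9 lies left of 1 in each line, Cftr and Slc4a2 lie on both sides, and Ano1 and Slc12a2 lie near 1 in line DDKC_9790.

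Mean levels differed between cell lines for all of the members that could be tested. The edgeR quasi-likelihood test of the line coefficients, with treatment in the model, passed 8 of 8 at an adjusted p under 0.05, against 35.3% of all genes tested, and adjusted p ran from 0.00288 (Car2) and 0.00301 (Slc4a4) to 0.0435 (Ano1). The residual spread of this test is how far the treatment difference varied between lines. Line DDKC_9790 had the lowest untreated level of each of the 8 except Car2, for which it was the highest. Untreated levels differed between the highest and the lowest line by 24.8-fold for Slc26a9, 11.9-fold for Car2 and 5.08-fold for Slc4a4. The difference was 2.22-fold to 3.75-fold for Ano1, Slc12a2, Slc4a2 and Slc26a6. Untreated Cftr had 2.33 CPM in its highest line, DDKC_9750. In its lowest, DDKC_9790, it had 2 counts, below the floor of 3 counts (0.129 CPM), so no exact fold is given.

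The rest of the machinery was read from 7 lists of related genes with 130 names, of which 127 were in the table, 119 had any count and 81 were tested. At an adjusted p under 0.05 the edgeR quasi-likelihood test on sums called 0 of them, and at an unadjusted p under 0.05 it passed 2 higher and 9 lower, against 8.53% of all genes in either direction. DESeq2 called 3 (Car9, Aqp1 and Aqp5, all lower), against 0.626% of all genes, and the fit over 12 libraries 9 higher and 12 lower, against 7.95% and 10.1%. Between lines 43 of the 81 differed, against 35.3% of all genes. In the SLC26 list 0 of 4 passed an unadjusted p under 0.05 and the median log2 fold change was 0.24; the most abundant, the sulfate transporter Slc26a2 and Slc26a10, had log2 fold changes of -0.48 (SE 0.25) and -0.13 (SE 0.26). In the SLC4 list 0 of 5 passed, with a median of 0.09, and Slc4a7, a sodium-bicarbonate cotransporter, had a log2 fold change of 0.09 (SE 0.11). Among cation-chloride cotransporters 0 of 6 passed, and the potassium-chloride cotransporters Slc12a7 and Slc12a4 had log2 fold changes of 0.13 (SE 0.18) and -0.08 (SE 0.12). Among other chloride channels 2 of 22 passed higher (Clcn7 and Lrrc8d) and 2 lower (Clcn2 and Lrrc8e), genes named after their values were seen, with Ano6, a calcium-activated scramblase, at 0.28 (SE 0.14) and Clcn3 at -0.07 (SE 0.10). Among carbonic anhydrases 0 of 8 passed higher and 2 lower: the hypoxia-responsive Car9 had -0.96 (SE 0.16) and Car5b, a mitochondrial form, -0.48 (SE 0.14), while Car8, which lacks catalytic activity, had -0.30 (SE 0.18). Among regulators of secretion 0 of 22 passed higher and 1 lower, the phosphodiesterase Pde4d, and Gnas, the stimulatory G protein subunit, and Ezr, the apical linker ezrin, had -0.27 (SE 0.12) and -0.24 (SE 0.15).

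The list of pumps, proton exchangers, potassium channels and water channels held 4 of the 9 lower genes, out of 14 tested, with a median log2 fold change of -0.26 and 0 higher. The sodium pump subunit Atp1b1, among its most abundant genes, had a log2 fold change of -0.45 (SE 0.63). It differed widely by line, from 436 to 1176 CPM in line DDKC_9750 against 37.9 to 17.3 CPM in line DDKC_9790 and 157 to 53.5 CPM in line DDKC_9804. Of the 4, 1 was Atp1b3 and 3 were water channels, all named after their values were seen. Aqp5, an apical water channel, went from 39.3 to 14.8 CPM in line DDKC_9750, from 301 to 176 CPM in line DDKC_9790 and from 46.9 to 14.0 CPM in line DDKC_9804 (log2 fold change -1.29, SE 0.21, adjusted p = 0.578, edgeR quasi-likelihood). Aqp1 went from 119 to 57.9 CPM, from 399.9 to 296 CPM and from 182 to 96.7 CPM in the same order (-0.79, SE 0.16, adjusted p = 0.578), and Aqp8 had 71, 18 and 6 counts untreated against 4, 2 and 0 with rDKK3. In line DDKC_9804 Aqp8, with 6 and 0 counts, had an interval of the ratio that reached 2.45 and so included 1. Its treated sums had at most 0.388 CPM, and it passed the filter on low counts through untreated libraries alone. Nothing is therefore read from the value of Aqp8 or from its place among the lower genes. Aqp3, the other water channel tested, had higher values with rDKK3 in each line at a low level (log2 fold change 1.16, SE 0.62, adjusted p = 0.638, edgeR quasi-likelihood). Its highest sum was 1.62 CPM, in treated line DDKC_9790. Aqp3 could not have passed the filter on low counts without its treated libraries, so nothing is read from its value or direction. Of all genes tested, 18.2% were lower and 14.2% higher in all 3 lines.

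**Figure D4:**
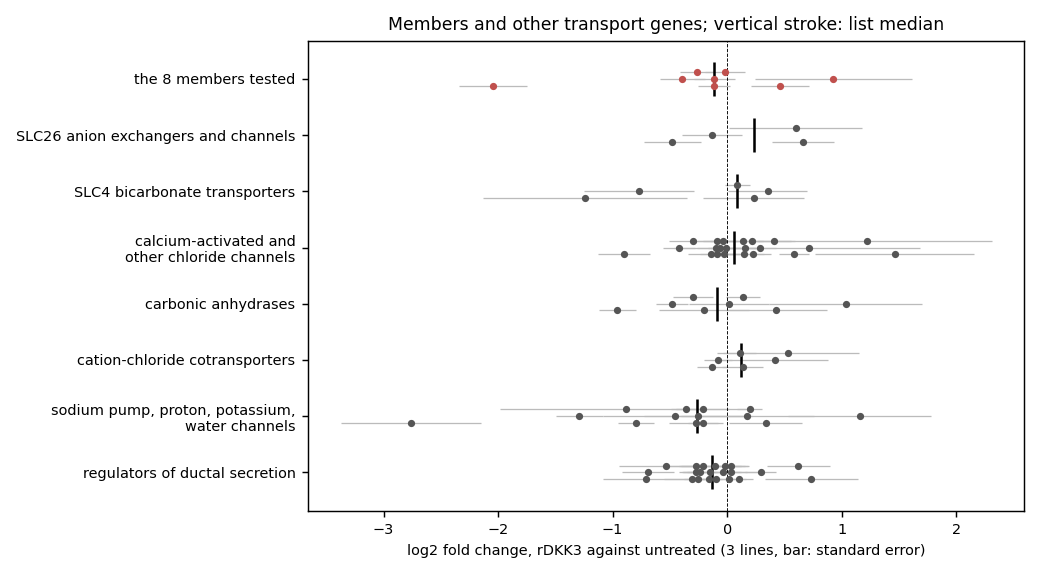
Log2 fold change with rDKK3 (horizontal axis, with standard error, n = 3 lines) of the 8 members tested in red and of the other transport and regulator genes tested in grey, by list; vertical strokes are medians. Slc26a9, at -2.05, is the lowest of the members, and the medians of the 7 other lists lie between -0.26 and 0.24.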

How the data were processed

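The authors sequenced directional libraries from both ends (50 bases each), mapped the reads on GRCm39 by STAR 2.7.9a, counted them per GENCODE gene by strand and used DESeq2 1.38.0 under R 4.2.2 (versions from the submitters' processing notes; the model formula is not given in the sources used here). They deposited raw counts per gene, without normalization, in 1 table with a column for each of the 12 libraries, each matched by its name. Of its 57278 rows, 92 spike-in rows held 0 counts and were dropped.

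Both libraries of a line and condition were summed and tested with edgeR 4.0.16 under R 4.3.3 (TMM; filterByExpr with a minimum count of 10 over the 6 groups; glmQLFit and glmQLFTest; Benjamini-Hochberg, threshold 0.05), line as a block. Lines pair the samples by the labels; deviations from the condition means correlated at 0.822, 0.874 and 0.805 within lines and at most at -0.266 between them. CPM used effective library sizes, log2 CPM a prior count of 2, and kilobases the exon union of GENCODE M39 (the authors counted on another release). Intervals and floors (3 counts) cover counting error only, and p-values measure only the spread between these samples. Alternatives were DESeq2 1.42.0, fits to 12 libraries or 1 library series, fits without the block, RLE, other filters and leaving out each line. The fits were tested on simulated data.

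The members and the lists were chosen with earlier results of these data known. Named are all 10 members, genes of a list past the threshold (at most 3) and its 2 most abundant genes, the 5 protein-coding genes most like the member of widest range, and the leading markers; Car5b, Clcn2, Clcn7, Lrrc8d, Lrrc8e, Pde4d, Atp1b3, Clca1, Clca3b, Kcnq1, Kcne3, Sox9, Onecut1, Muc1, Cd68, Zeb2, Pdpn and the water channels were named after their values were seen. Mapping quality and reads were not analysed here. An allele shared by all groups and 1 gene that the naming rule would give are not reported here.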

Additional observations from a re-analysis of the deposited data

Results flagged for a closer look

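For 4 genes the treatment difference had opposite signs in different lines, in both libraries of each line. These differences between lines were not tested for these genes. The log2 fold change of Cftr was 1.68 in line DDKC_9750, 1.22 in line DDKC_9790 and -1.03 in line DDKC_9804, with 3 to 6 counts in the treated sums of the last 2. That of Slc4a4 was 0.14, -0.12 and -0.36 in the same order. Slc4a2 had 0.22, 0.21 and -0.48, and Car2 had 0.35, -0.34 and -0.29.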

How the results depend on the processing

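Over all genes, the summed fit called 1 gene for rDKK3 (1294 at an unadjusted p under 0.05). DESeq2 on the sums called 95, the sums without a filter 90, the lower-numbered libraries alone 6, and a minimum of 10 counts in every sum 0. Taking the 12 libraries as separate samples gave 2744, and 3124 with the library series as a covariate. Without the replicate block, 0 genes were called in the sums and 0 in the 12 libraries; leaving out 1 line gave 0 to 2 (2 without line DDKC_9804). Of the 8 members, 3 were called over 12 libraries, with or without the series, 1 by DESeq2 and 1 without a filter, against 0 in the summed fit. For cell line, 11790 genes were called over 12 libraries, against 5348.

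Signs turned only for small values: Slc4a4 ranged from -0.24 to 0.0083 when each line was left out, Slc4a2 from -0.13 to 0.21 and Car2 from -0.31 to 0.035, and Slc4a2 was 0.0067 in the higher-numbered libraries. Changing the prior count or scaling turned 0 of 27 single-line signs in 54 recomputations, but sizes changed. The log2 fold change of Clca3a2 in line DDKC_9750 went from 3.38 to 5.27 with a prior count of 0.5. With plain library totals, that of Slc12a2 in line DDKC_9790 went from 0.0072 to 0.067. Scaling moves all genes of a sum alike, so unturned signs say little about stability. With 3 pairs an exact permutation test cannot go below a two-sided p of 0.25. Depth limits Cftr, Slc26a6, Clca3a2 and Slc26a3 most.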

Other observations

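Clca1 and Clca3b, the Clca genes of the calcium-activated chloride channel list that passed the filter on low counts, were singled out after their values were seen. In line DDKC_9750 Clca1 went from 21 to 74 counts (0.698 to 7.18 CPM, ratio 10.3, exact 95% interval 6.27 to 17.6, counting error only). Clca3b went from 2 to 66 counts in that line. Its untreated sum was below the floor of 3 counts, so only the interval of the ratio is given (25.7 to 812.5). In line DDKC_9804 the ratios of Clca1 and Clca3b were 1.02 (interval 0.643 to 1.57) and 1.16 (0.965 to 1.39). In line DDKC_9790 they were 2.17 (1.25 to 3.86) and 0.921 (0.684 to 1.24). These genes are similar in sequence, and how far they share reads was not tested.

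Kcnq1 and Kcne3, subunits that can form 1 potassium channel complex, were also singled out after their values were seen. Kcne3 went from 3.02 to 10.4 CPM in line DDKC_9750 but from 2.67 to 0.865 CPM in line DDKC_9790 and from 4.82 to 0.329 CPM in line DDKC_9804. Kcnq1 had ratios of 1.60 (361 and 198 counts), 0.457 (interval 0.106 to 1.54, with 11 and 4 counts) and 0.417 (0.192 to 0.815) in the same order, so that the interval of line DDKC_9790 included 1. The difference between lines was not tested.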
